A study of Rattus norvegicus with 14 samples.

Results

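Transcripts of the proteasome, the particle that degrades ubiquitin-tagged proteins, were followed in rat liver through chemical carcinogenesis. Genes were taken by symbol (Psma, Psmb, Psmc, Psmd, Psme, Psmf or Psmg followed by a digit), with the brightest probe set kept for each gene. This gave 47 of the 14497 genes measured. Of these, 2 encode no subunit (Psmc3ip and Psme3ip1) and were kept apart, which left 45 subunits and assembly chaperones. They comprised 13 constitutive genes of the 20S core (6 of the alpha ring, 7 of the beta ring), 17 genes of the 19S cap, 5 immunoproteasome genes, 2 other activators, 6 assembly chaperones, the thymic form Psmb11 and the alpha 3-like gene Psma3l. Psma3 itself was read only by a probe set shared with Psma3l and was no member. Psmf1, Psmg3 and Psma8 were not analysed here.

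The 12 male F344 rats fell into 4 groups of 3 animals, and tissue was laser-captured from formalin-fixed, paraffin-embedded sections. The Adult Liver group was normal and unmanipulated. The AAF/PH rats carried a 2.5 mg pellet of 2-acetylaminofluorene, released over 14 days, from day 1, had a partial hepatectomy on day 7 and were taken on day 14, and their captured tissue was labelled for oval cells, progenitor-like cells of the injured liver. In the Solt-Farber (SF) model, which makes preneoplastic foci, rats received diethylnitrosamine at 200 mg/kg on day 1, the 2-acetylaminofluorene pellet on day 14, and a partial hepatectomy on day 21. A 21-day pellet given at that surgery held placebo (SF Placebo) or rapamycin, an inhibitor of the growth kinase mTOR, at 2.5 mg/kg per day (SF Rapamycin). Persistent foci that stained for GSTP, a glutathione transferase of altered hepatocytes, were captured on day 70, after the pellet's 21 days were over. The capture chose regions by that marker, and the normal livers had neither surgery nor pellet. SF Rapamycin animal 3 was hybridised to 3 arrays, which were averaged into 1 animal, so that 14 arrays gave 12 values per gene.

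The 20S core is a barrel of alpha rings, which gate entry, around beta rings that hold the protease sites in Psmb5, Psmb6 and Psmb7. The 19S cap recognises, unfolds and feeds in ubiquitinated substrates, its ATPases Psmc1 to Psmc6 forming the motor. Interferon gamma induces the immunoproteasome, in which Psmb8, Psmb9 and Psmb10 take the places of Psmb5, Psmb6 and Psmb7, and the activator of Psme1 and Psme2 docks onto the core. This form favours peptides that fit MHC class I molecules. Hepatocytes normally carry mainly the constitutive form, and inflamed liver carries more of the induced one.

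The immunoproteasome genes carried the clearest change relative to their counterparts, and the starts of the genes that encode them are shown for that reason. RefSeq promoters on the assembly GRCr8, from 250 bases before to 50 after the start site, were found for 39 of the 45 genes. Each was searched on both strands for GAAANNGAA, a core of the interferon-stimulated response element. Capitals below mark each match, on either strand, and sequences run 5′ to 3′ on the gene's strand. The windows are chr20:4656982-4657281 (minus strand) for Psmb8, chr20:4668750-4669049 (plus strand) for Psmb9, chr19:50743243-50743542 (minus strand) for Psmb10 and chr15:33052702-33053001 (minus strand) for Psme2.
Psmb8: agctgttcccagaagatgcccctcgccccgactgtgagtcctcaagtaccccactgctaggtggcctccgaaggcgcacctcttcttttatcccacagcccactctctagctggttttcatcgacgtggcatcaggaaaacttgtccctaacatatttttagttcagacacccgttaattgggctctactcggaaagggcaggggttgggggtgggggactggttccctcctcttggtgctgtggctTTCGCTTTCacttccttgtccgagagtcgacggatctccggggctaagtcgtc
Psmb9: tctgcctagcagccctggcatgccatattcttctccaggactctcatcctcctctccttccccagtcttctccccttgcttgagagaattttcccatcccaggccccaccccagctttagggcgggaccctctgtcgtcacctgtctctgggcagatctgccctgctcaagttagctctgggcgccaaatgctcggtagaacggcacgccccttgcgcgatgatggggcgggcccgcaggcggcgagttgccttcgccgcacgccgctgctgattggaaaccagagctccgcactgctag
Psmb10: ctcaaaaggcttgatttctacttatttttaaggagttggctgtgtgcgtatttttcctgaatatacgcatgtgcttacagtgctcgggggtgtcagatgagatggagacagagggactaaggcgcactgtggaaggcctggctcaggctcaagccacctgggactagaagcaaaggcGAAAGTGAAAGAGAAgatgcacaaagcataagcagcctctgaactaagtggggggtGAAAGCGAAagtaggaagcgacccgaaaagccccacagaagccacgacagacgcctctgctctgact
Psme2: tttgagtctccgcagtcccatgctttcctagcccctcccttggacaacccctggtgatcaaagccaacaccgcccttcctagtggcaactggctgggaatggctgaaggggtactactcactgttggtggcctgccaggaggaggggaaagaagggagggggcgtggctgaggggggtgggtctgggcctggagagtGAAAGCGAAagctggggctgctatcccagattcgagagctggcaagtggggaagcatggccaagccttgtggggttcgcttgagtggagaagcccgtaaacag
The Psmb10 window held 3 matches, of which a pair overlapped, and the Psmb8 and Psme2 windows 1 each. These letters are not in the Psmb9 window. The motif stood in 3 of 5 immunoproteasome promoters, in 9 of the 39 member promoters (23.1%), and in 9.71% of all 33469 promoters in the table. The core of the antioxidant response element, TGACNNNGC, which is bound by NRF2 and by NFE2L1, stood in 7 member promoters (17.9%, against 12.1% of all) and in 0 of the 5 immunoproteasome promoters. It was found in those of Psmb2, Psmb5, Psmb6, Psmd1, Psmd3, Psmd9 and Psme4. The CCAAT box stood in 18 (46.2%, against 37.5% of all). A match is a description of letters and not a site. In the gene order of GRCr8, Psmb8 lay between Tap2 and Tap1, whose products carry peptides to MHC class I molecules, and Psmb9 followed Tap1. Psme1 and Psme2 had only Emc9 between them among protein-coding genes.

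Array values are intensities, the brightness of a probe set, which can be compared between animals for 1 gene but not between genes. SF Rapamycin animal 3 stood apart, and per the labels the submitters saw this in their own clustering. Its intensity was the lowest of the 12 animals for 39 of the 45 genes, and for 38 of the 40 that are not immunoproteasome genes. The signal of its arrays was also compressed: the interquartile range of log2 intensity over all genes was 1.57 to 1.71 on its 3 arrays and 1.98 to 2.80 on the others. The mean log2 intensity of the 45 genes was 5.88 to 6.16 on those 3 arrays and 6.46 to 7.41 elsewhere. The mean of the 13 constitutive 20S genes was lowest in SF Rapamycin animal 3 (6.37, range 1.61 over its averaged arrays) and highest in Adult Liver animal 1 (8.27, range 2.80). The part of signal compression in the differences below was not tested. In the plot of class means against the range, the immunoproteasome genes did not line up in this way over all 12 animals. SF Rapamycin animal 1 had the highest mean (8.76) at a range of 2.38, and Adult Liver animal 1 had 7.42 at the widest range. Among the foci alone, the mean was higher where the range was wider. SF Rapamycin animals 1 and 2 and SF Placebo animal 3 had means of 8.76, 8.17 and 8.69 at ranges of 2.38, 2.50 and 2.61. The other foci had means of 7.13 to 7.64 at ranges of 1.61 to 2.18.

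**Figure D1:**
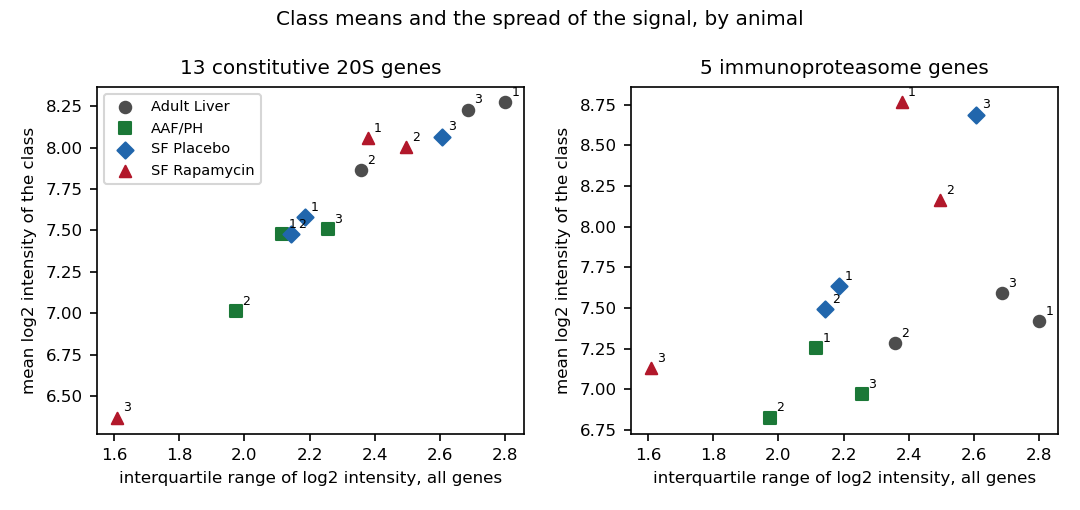
Mean log2 intensity of 13 constitutive 20S genes (left) and 5 immunoproteasome genes (right) for each of 12 animals, against the interquartile range of log2 intensity over all genes; numbers beside points are animals within a group. The constitutive mean lies between 6.37 and 8.27 and is lowest where the range is narrowest (1.61), while the immunoproteasome mean is highest in SF Rapamycin animal 1 (8.76) and SF Placebo animal 3 (8.69).

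In AAF/PH liver most proteasome genes were lower than in normal liver, and 7 of 45 passed the test, all lower. Calls needed an adjusted p below 0.05 in limma, a moderated linear model fitted to all 12 animals, with Benjamini-Hochberg adjustment over all 14497 genes. Of all genes 12.5% were called lower and 20% called in either direction, so the share among the 45 was close to the background. The difference was below 0 for 42 of the 45, with a median of −0.49 on the log2 scale, against 40.4% of all genes and a median of 0.12. With dim genes (mean log2 under 4) left out, the all-gene median was −0.04, and that of the 45 stayed at −0.49. In 27 of the 45, every AAF/PH animal lay below every normal animal, as in 22.2% of all genes. These directions depend on scaling: after quantile normalization, which gives every array the same distribution, 30 of 45 stood below 0, the median was −0.06 (all genes 0.02), and 2 were called lower and 1 higher. After scaling every array to a common spread, 39 of 45 stood below 0 with a median of −0.35, and the median of all genes moved to −0.11.

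In the core, Psmb2, a beta ring subunit without protease activity, had the largest fall of the constitutive members. Its intensity was 531, 521 and 525 in the 3 normal animals and 252, 151 and 234 in AAF/PH liver. The groups were far apart, with little spread among normal animals. The log2 difference was −1.34 ± 0.39 (standard error of the limma fit, n = 3 per group, adjusted p = 0.0256), and it stayed called after quantile normalization (−0.86, adjusted p = 0.0390). Psma3l, named after the alpha 3 subunit, was at 190.1, 111 and 157 in normal liver and at 54.6, 39.4 and 54.7 in AAF/PH liver. Its difference of −1.60 ± 0.50 (limma adjusted p = 0.0366) was the largest of all 45. The probe set shared by Psma3 and Psma3l differed by −1.86 ± 0.63. All 6 alpha ring genes stood below 0, from −1.15 to −0.36, and none was called. Psma5, of smallest p in that ring, was at 229.9, 151 and 207 in normal and 123, 67.7 and 84.7 in AAF/PH liver, a difference of −1.11 (limma adjusted p = 0.0533). The 7 constitutive beta genes ran from −1.34 to −0.20. Among the protease subunits Psmb7 differed by −0.96, Psmb6 by −0.43 and Psmb5 by −0.20, none of them called.

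In the 19S cap, Psmc6, an ATPase of the motor ring, and Psmd1, a large scaffold subunit at the base, passed the test. Psmc6 was at 174, 115 and 150.0 in normal liver and 85.8, 51.9 and 74.5 in AAF/PH liver, which do not overlap. The log2 difference was −1.06 ± 0.33 (limma adjusted p = 0.0351). Psmd1 was at 138, 116 and 135 against 64.3, 52.2 and 68.1, a difference of −1.08 ± 0.34 (limma adjusted p = 0.0349). The other 15 cap genes were not called, and their values spread widely. Psmc2, another motor ATPase, differed by −0.02, and Psmd4, a ubiquitin receptor, by −0.03. Psmd13, a scaffold subunit of the lid, had the only cap value above 0, at 0.24. The medians were −0.31 for the 6 ATPases, −0.42 for the 11 non-ATPases and −0.98 for the alpha ring. After quantile normalization they were 0.06, −0.06 and −0.58, so the direction of the cap did not hold under that scaling.

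The called genes outside the particle proper were Psme4, an activator linked to histone degradation, and the chaperones Psmg1 and Psmg4, which help to build the alpha ring. Psmg1 had the smallest adjusted p of the 45 genes, at 254, 168 and 207 in normal liver and 89.1, 79.1 and 104 in AAF/PH liver. It differed by −1.20 ± 0.33 (limma adjusted p = 0.0184), and by −0.81 after quantile normalization (adjusted p = 0.0303). Psmg4 was at 212, 199.6 and 219 against 108, 99.6 and 122, with no overlap and a difference of −0.94 ± 0.31 (limma adjusted p = 0.0428). Psme4 was at 154, 116 and 148 against 61.5, 58.2 and 74.4, a difference of −1.11 ± 0.36 (limma adjusted p = 0.0412). Psme3, the nuclear activator related to Psme1 and Psme2, read 257, 215 and 250 in normal and 277, 223 and 312 in AAF/PH liver on its brightest probe set, a difference of 0.16 ± 0.27. After quantile normalization it was the gene called higher (0.66, adjusted p = 0.00548). Its second, dimmer probe set stood on the other side of 0, at −0.69 ± 0.23, so its direction depends on the probe set. The chaperones Psmd5, Psmd9, Psmd10 and Psmg2 ranged from −0.79 to −0.21, and all 6 chaperones stood below 0 after quantile normalization too. Psmb11, which belongs to the thymus, read 14.4 to 26.8 over the 12 animals, at the 36.1 percentile of all genes by mean log2 intensity.

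Which of these were called depends on single animals. Leaving out SF Rapamycin animal 3 raised the count to 22 of 45 (19.7% of all genes called lower, 35.9% in either direction). That animal is in neither group but enters the shared estimate of spread, and the median difference stayed at −0.49. Leaving out AAF/PH animal 2, Adult Liver animal 1 or Adult Liver animal 3 left 0 called by limma. Over the main and 22 alternative analyses Psmb2 and Psmg1 were called in 19 of 23, Psmc6 in 18, Psma3l in 15, Psmd1 in 14, Psmg4 in 13 and Psme4 in 12. In bulk tissue, fewer cells of a type and less RNA per cell cannot be told apart. The summed intensity of 10 hepatocyte markers was 37428 to 39622 in normal and 24344 to 27024 in AAF/PH liver, and that of 8 biliary and oval cell markers was 194 to 227 and 779 to 1368. The 10 hepatocyte markers did not move together: 7 stood below 0 and 3 above. Of them 5 were called lower by limma, against 12.5% of all genes. Cps1, one of the 10, read 1619 to 2382 in normal liver and 2006 to 2308 in AAF/PH tissue. Albumin (Alb), another of the hepatocyte markers, read 7868 to 8291 in normal liver and 4222 to 5020 in AAF/PH tissue. These values do not tell which cells carried it. The part of cell composition in the differences was not tested.

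**Figure D2:**
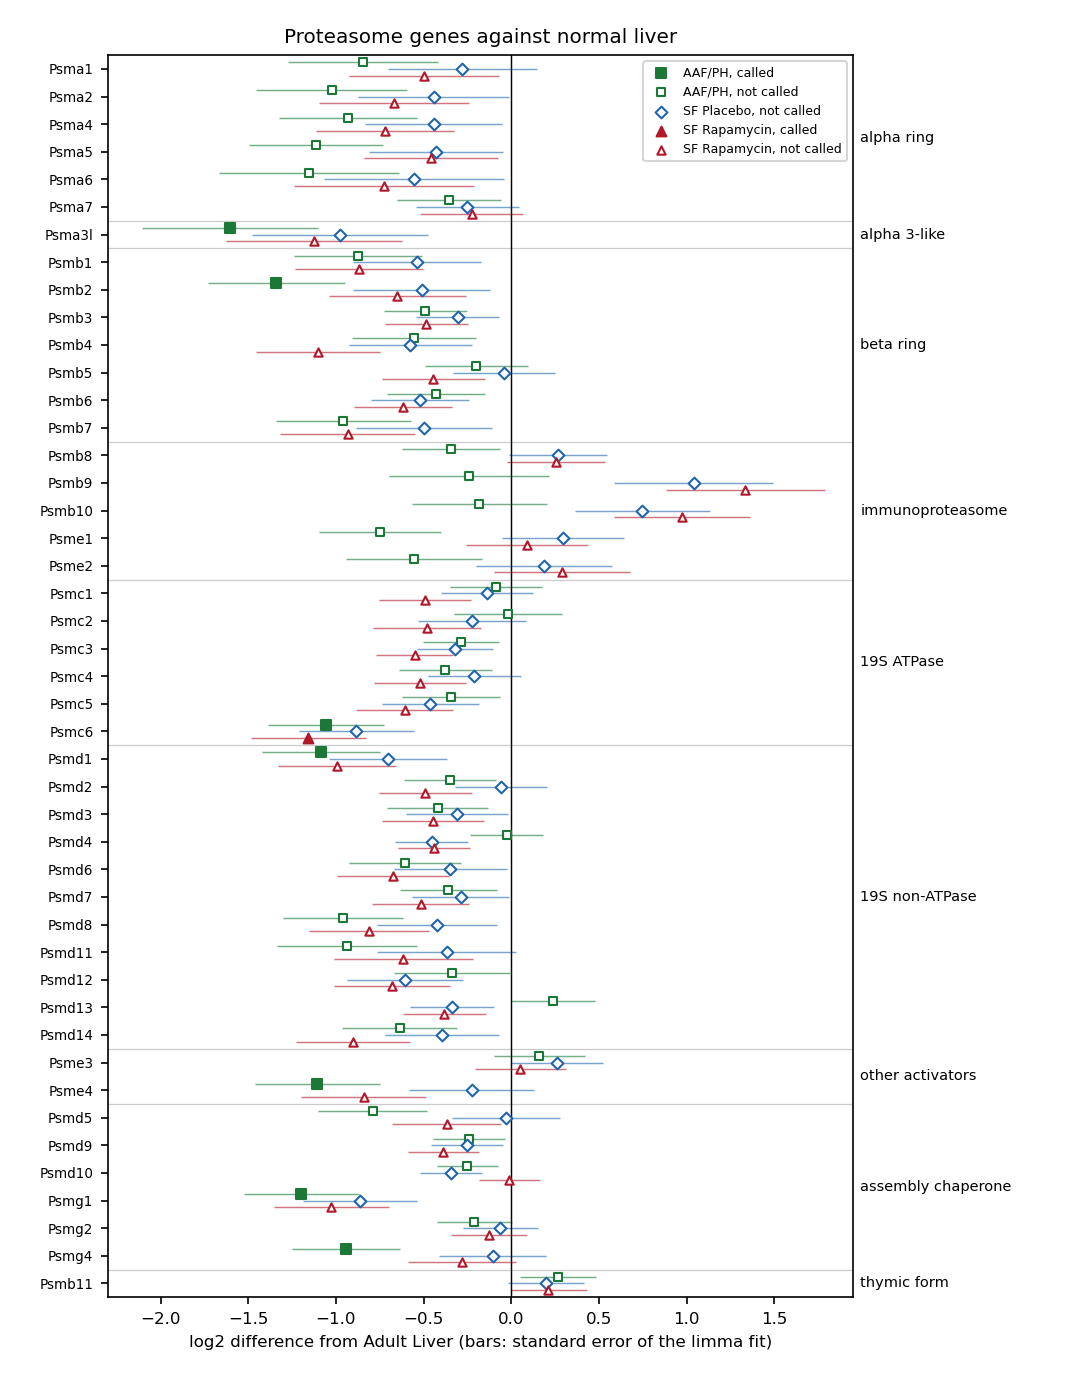
Log2 difference from Adult Liver (x axis) of 45 proteasome genes in AAF/PH liver (squares), SF Placebo foci (diamonds) and SF Rapamycin foci (triangles), with the standard error of the limma fit as bars and filled symbols for genes called at an adjusted p under 0.05. Of the AAF/PH values 7 are filled and of the SF Rapamycin values 1 (Psmc6); the immunoproteasome genes of both kinds of foci lie right of 0, up to 1.33.

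In foci of placebo-treated rats the constitutive genes stood slightly below normal liver and the immunoproteasome genes above it. None of the 45 was called by limma, against 8.22% of all genes, and 4 of the 45 had an unadjusted p under 0.05, as had 20.4% of all genes. The difference was below 0 for 38 of 45 with a median of −0.32, against 45.5% and a median of 0.04 for all genes. With dim genes (mean log2 under 4) left out, the all-gene median was −0.05. Every one of the 13 constitutive core genes (median −0.44) and the 17 cap genes (median −0.35) was below 0. After quantile normalization 32 of 45 were below 0 and the median was −0.14, and Psmb5 moved above 0 (0.22). Animals did not overlap in 10 of 45 on the low side (15.7% of all genes) and in 3 on the high side (14.8%), which were Psmb9, Psmb10 and Psme3 (whose second probe set gave −0.47). Within the group, placebo animal 3 was the highest for 43 of 45 members: Psma1 read 203, 185 and 357 and Psmb2 297, 325 and 521.

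Psmg1 and Psmc6 were the constitutive-type genes of smallest p here. Psmg1 read 95.4, 106 and 146 in placebo foci, all below the 168 of the lowest normal animal, a difference of −0.86 (limma adjusted p = 0.14). Psmc6 read 86.0, 59.3 and 93.4, below the normal low of 115, a difference of −0.88 (limma adjusted p = 0.131). Without SF Rapamycin animal 3, 6 of 45 were called lower (Psmg1, Psmc6, Psmd1, Psma3l, Psmb4 and Psmb6) and Psmb9 was called higher. The background then was 17.0% in either direction.

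In foci of rapamycin-treated rats 1 of 45 was called, Psmc6, which was lower (4.93% of all genes called lower, 6.53% in either direction). It read 82.4, 93.2 and 35 against 174, 115 and 150.0, a difference of −1.16 ± 0.33 (limma adjusted p = 0.0495), and was called in 7 of 23 analyses. The difference was below 0 for 38 of 45, with a median of −0.50. The all-gene median was 0.07, and −0.11 with dim genes (mean log2 under 4) left out. All 13 core genes (median −0.65) and all 17 cap genes (median −0.55) were below 0. After quantile normalization 36 of 45 stood below 0, with a median of −0.26. Much of this rested on animal 3. Psma1 read 325, 326 and 79.7 in the 3 rapamycin animals and 331, 240.1 and 299.9 in normal liver. Psmb4, a beta subunit without protease activity, read 236, 227 and 72.1 against 392, 259 and 377, a difference of −1.10 (limma adjusted p = 0.0743). Without animal 3 the median of the 45 was −0.12, 30 of 45 were below 0, the alpha ring median was 0.09, and the genes called were Psmb9 and Psmb10, both higher (2.79% of all genes called higher, 6.68% in either direction). The 3 arrays of that animal, the last of them from a new laser capture, gave Psma1 at 73.1, 75.5 and 91.9.

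The 5 immunoproteasome genes stood above normal liver in both kinds of foci, with medians of 0.30 (placebo) and 0.29 (rapamycin), while the constitutive core stood below it. Psme1 in rapamycin foci was the exception to scaling, at 0.09 as deposited and −0.08 after median centring. None of the 5 was called by limma with all animals. Psmb9, the caspase-like site's replacement, read 102, 106 and 127 in normal liver, 116, 78.0 and 91.9 in AAF/PH liver, 157, 161 and 473 in placebo foci and 583, 275 and 138 in rapamycin foci. Every focus lay above every normal and AAF/PH animal, and animals of 1 group differed several-fold. The log2 differences from normal were 1.04 ± 0.45 in placebo foci (limma adjusted p = 0.211) and 1.33 ± 0.45 in rapamycin foci (limma adjusted p = 0.0922). After quantile normalization the second was 1.58 and called (adjusted p = 0.0204), and without rapamycin animal 3 it was 1.85 ± 0.37 (adjusted p = 0.00427). Without rapamycin animal 1, the highest, it was 0.81, and without placebo animal 3 the placebo difference was 0.52, neither of them called. Over 22 alternatives Psmb9 was called higher in 3 for placebo foci and in 4 for rapamycin foci.

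Psmb10, which replaces the trypsin-like subunit, was high in the same animals. It read 83.4, 73.4 and 90.0 in normal liver, 89.3, 55.6 and 75.7 in AAF/PH liver, 106, 97.2 and 253 in placebo foci and 285, 159 and 92.2 in rapamycin foci. All foci lay above all other animals, by a log2 difference from normal of 0.75 ± 0.39 (limma adjusted p = 0.3) and 0.97 ± 0.39 (limma adjusted p = 0.136). Without placebo animal 3 the first was 0.31, and without rapamycin animal 1 the second was 0.56. Psmb8, which replaces the chymotrypsin-like subunit, read 119, 115 and 135 in normal, 111, 106 and 76.7 in AAF/PH liver, 138, 109.8 and 212 in placebo foci and 214, 147 and 99.6 in rapamycin foci. The focus values of Psmb8 overlapped with normal liver, with differences of 0.27 and 0.25.

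The activator genes Psme1 and Psme2 had the largest differences below normal of the 5 in AAF/PH liver, and their focus values overlapped with normal liver. Psme1 read 412, 344 and 449 in normal, 293, 196 and 233 in AAF/PH liver, 444, 379 and 699 in placebo foci and 618, 584 and 212 in rapamycin foci. AAF/PH animals were all below normal (−0.75, limma adjusted p = 0.138) and below every placebo focus (1.05, limma adjusted p = 0.127). Psme2 read 353, 299.9 and 385 in normal, 246, 209 and 251 in AAF/PH liver, 305, 292 and 676 in placebo foci and 709, 521 and 202 in rapamycin foci. For these genes placebo animal 3 and rapamycin animals 1 and 2 were the high samples, as for Psmb9 and Psmb10.

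**Figure D3:**
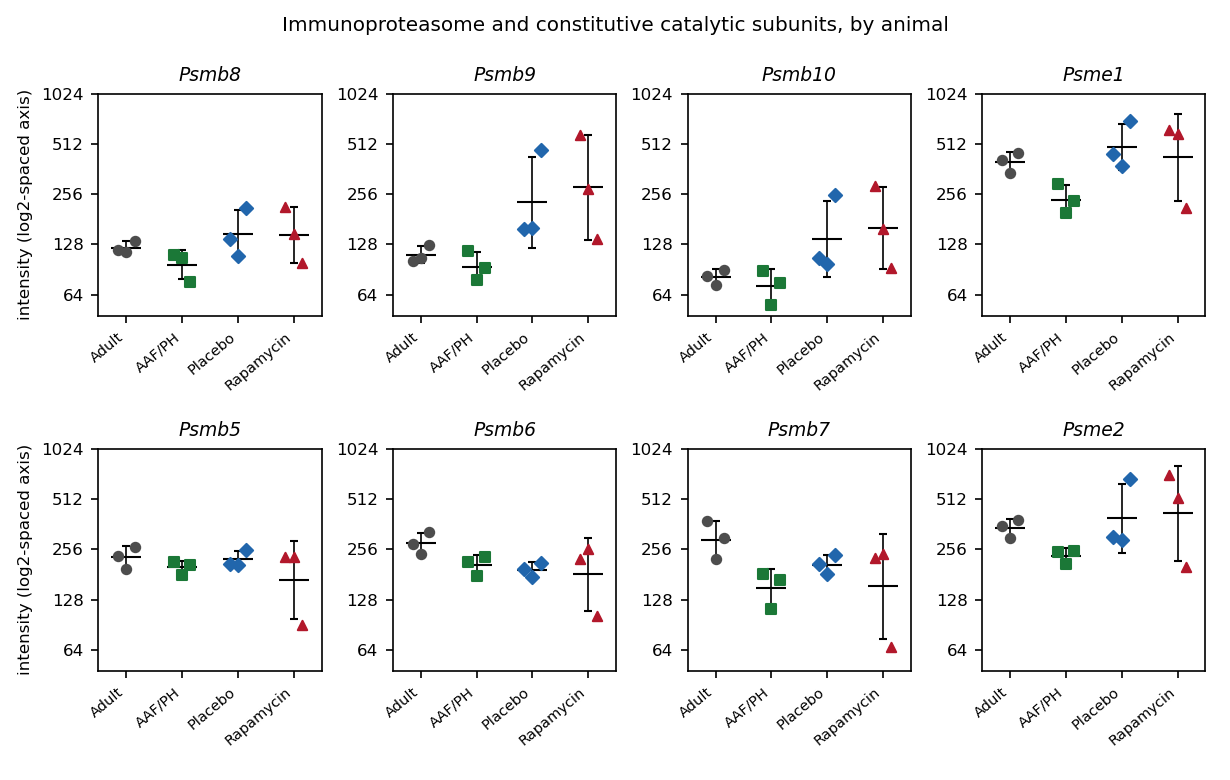
Intensity (y axis, log2-spaced) of 5 immunoproteasome genes and of the constitutive protease subunits Psmb5, Psmb6 and Psmb7 in each animal (points) of 4 groups, with the geometric mean as a dash and 1 SD of the log2 values as bars. Psmb9 lies at 78.0 to 127 in normal and AAF/PH liver and at 138 to 583 in foci; in the lower row rapamycin animal 3 is the lowest point of Psmb5 (90.4), Psmb6 (102) and Psmb7 (66.8).

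Because an array's overall signal acts on both genes of a pair, each replacement subunit was set against its constitutive counterpart on the same array. The log2 difference within an array shows unequal change, not which gene is the more abundant. It removes a shift shared by both genes, but not compression of the signal, which brings unequal intensities closer. SF Rapamycin animal 3, of narrowest range, had the highest value of the 12 animals for Psmb8 minus Psmb5 (0.14) and Psmb10 minus Psmb7 (0.46). For Psmb9 minus Psmb6 it read 0.43, below rapamycin animal 1. The part of compression was not tested beyond the scalings given below. Psmb9 minus Psmb6 was −1.32 ± 0.13 in normal liver, −1.13 ± 0.23 in AAF/PH liver, 0.24 ± 0.79 in placebo foci and 0.63 ± 0.66 in rapamycin foci (SD, n = 3). All 6 foci (−0.31 to 1.37) lay above all 6 other samples (−1.43 to −0.88). The ratio of Psmb9 to Psmb6 was 2.95 times that of normal liver in placebo foci and 3.87 times in rapamycin foci. Psmb6 had geometric means of 278 in normal liver, 194 in placebo foci and 181 in rapamycin foci, against 111, 229 and 281 for Psmb9. An exact permutation test over the 12 animals in 4 groups gave p = 0.00688 (0.0137 adjusted over the 3 pairs).

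Psmb10 minus Psmb7 was −1.84 ± 0.30 in normal, −1.06 ± 0.07 in AAF/PH liver, −0.59 ± 0.60 in placebo foci and 0.07 ± 0.58 in rapamycin foci (SD, n = 3). Here the AAF/PH samples also lay above all normal ones, by 0.78 on average, and below all foci. The ratio was 2.37 times normal in placebo foci and 3.75 times in rapamycin foci (exact permutation p = 0.00916, adjusted 0.0137). Psmb8 minus Psmb5 was −0.90 ± 0.12, −1.05 ± 0.34, −0.60 ± 0.32 and −0.21 ± 0.41 in the same order (SD, n = 3; exact permutation p = 0.0353, adjusted 0.0353). In that pair placebo foci overlapped with normal liver and rapamycin foci did not. The test asks whether the 4 groups differ and does not say which. Between 2 groups of 3 the exact test cannot go below 0.1, and it gave 0.1 for both kinds of foci against normal in the Psmb9 and Psmb10 pairs.

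The Psmb9 and Psmb10 pairs stayed under an adjusted p of 0.05 in all 16 alternatives, which were added after the data were seen and comprised quantile normalization, a common spread, the first array alone of rapamycin animal 3, the mean of all probe sets, and leaving out each animal in turn. The Psmb8 pair did so in 8 of 16, and without rapamycin animal 3 its exact permutation p was 0.119.

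**Figure D4:**
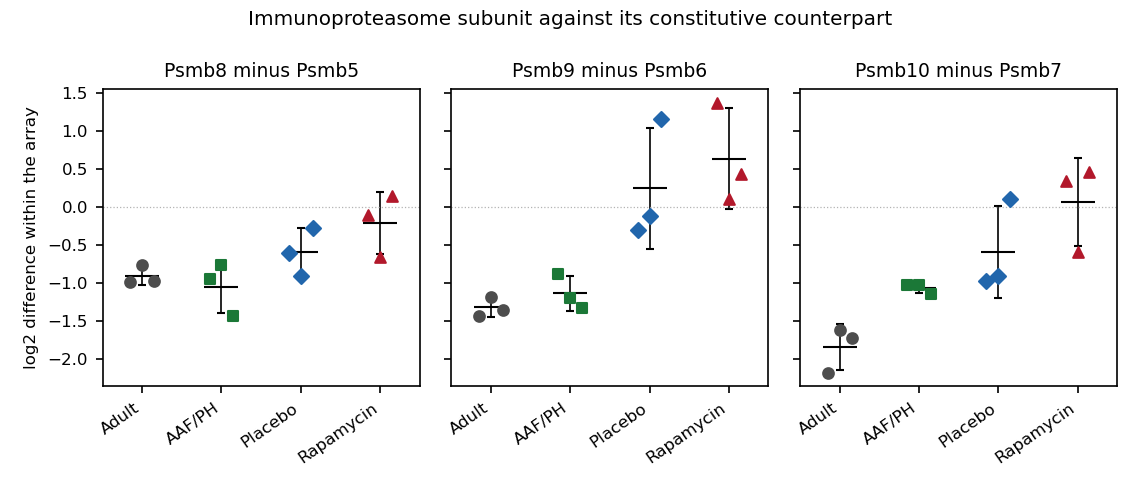
Log2 difference within the array between each replacement protease subunit and its constitutive counterpart (y axis) in each animal (points) of 4 groups, with the mean as a dash and 1 SD as bars. For Psmb9 minus Psmb6 normal and AAF/PH animals sit between −1.43 and −0.88 and foci between −0.31 and 1.37.

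Against AAF/PH liver, no member was called in placebo foci (4.19% of all genes) or in rapamycin foci (4.01%). In limma without adjustment, 8 and 6 of the 45 had a p under 0.05, shares near those of all genes (15.3% and 13.2%). All 5 immunoproteasome genes were higher in value in both, with medians of 0.93 and 0.85, and 4 of the 5 did not overlap in placebo foci. Psmb9 differed by 1.28 (limma adjusted p = 0.16) and 1.58 (limma adjusted p = 0.0748). Of the 45 genes, 12 lay wholly above AAF/PH liver in placebo foci (13% of all genes) and 2 in rapamycin foci (5.44%), Psmb9 and Psmb10. Psmd13 had the largest difference below 0 in both, at −0.58 and −0.62. Without rapamycin animal 3, 17 of 45 were called higher in rapamycin foci (10.4% of all genes called higher, 14.2% in either direction), including all 5 immunoproteasome genes and 5 of 6 alpha ring genes. Placebo foci then had 7 called higher (7.82% called higher, 12% in either direction). The comparisons with normal and with AAF/PH liver share the focus samples.

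Between rapamycin and placebo foci, a comparison that addresses a lasting effect of the drug, 0 of the 45 were called by limma (0% of all genes), and 0 of the 45 had an unadjusted p under 0.05 (3.33% of all genes). The difference was below 0 for 38 of 45 with a median of −0.21, and this direction turned when rapamycin animal 3 was left out (40 of 45 above 0, median 0.24, none of them called by limma against 0.0207% of all genes). It also turned with array quality weights, which count that animal less (median 0.18). Psme4 had the lowest value, −0.62 ± 0.36, and Psmd10, a chaperone also called gankyrin, the highest, 0.33. Psmd10 read 15.6, 13.9 and 16.2 in placebo foci and 17.2, 18.7 and 21.7 in rapamycin foci, the only member whose groups did not overlap. Groups lay apart for 525 of all 14497 genes on the high side and for 350 on the low side. Psmd10 is a dim gene, at the 32.8 percentile, and its highest value is that of rapamycin animal 3. In that animal the first quartile of intensity over all genes was the highest of the 12 animals (16, against 11.2 to 14.4). The 3 arrays of that animal gave Psmd10 at 29.0, 19.9 and 17.8, and without that animal the difference was 0.24. Psmb9 differed by 0.29 ± 0.45 and Psmb8 by −0.01 ± 0.28, and the animals overlapped in all 3 protease pairs. With these standard errors, differences of this size could not be told from 0.

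Genes that work with the proteasome were read as lists. Of 15 measured proteasome-associated genes, 12 stood below 0 in AAF/PH liver, 12 in placebo foci and 12 in rapamycin foci, with medians of −0.48, −0.28 and −0.52. Of all genes 40.4%, 45.5% and 44.6% stood below 0 in these comparisons with normal liver. After quantile normalization 10 of the 15 did so in each. The only call against normal liver was Zfand2a, an arsenite-inducible proteasome partner, which rose in placebo foci by 1.10 ± 0.18 against normal liver (limma adjusted p = 0.0015) and by 0.73 against AAF/PH liver. This 1 of 15 stands against 2.84% of all genes called higher in placebo foci than in normal liver. Pomp, the chaperone that matures the core, differed by −1.16 in AAF/PH liver without a call (limma adjusted p = 0.098). Of 10 genes around NFE2L1, the factor that raises proteasome genes when the particle is short, all 10 stood below 0 in each of the 3 comparisons with normal liver, and 8, 9 and 10 of them after quantile normalization. Sel1l, of the degradation machinery of the endoplasmic reticulum, was called lower in all of these (−1.22, −0.97 and −0.92), and Syvn1 and Ngly1 in AAF/PH liver. That made 3, 1 and 1 of the 10 called lower, against 1807, 780 and 715 of all 14497 genes. Nfe2l1 itself differed by −0.39, −0.34 and −0.30 with no call.

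Of 19 interferon gamma response genes, 1 was called higher in placebo foci (Ifi47) and 4 in rapamycin foci (Cxcl10, Ifi47, Socs1 and Ciita) against normal liver, with none lower. Of all genes 2.84% and 1.60% were called higher in these comparisons. Cxcl10, an interferon-induced chemokine, rose by 2.54 ± 0.55 in rapamycin foci (limma adjusted p = 0.0142). Ifi47, an interferon-induced GTPase, rose by 2.02 ± 0.53 in placebo foci (limma adjusted p = 0.0289, and 0.081 after median centring). In AAF/PH liver 2 were called higher (Irf8 and Ciita) and 4 lower (Stat2, Irgm, Cxcl11 and Irf9), against 7.54% and 12.5% of all genes. Their summed intensity was 1295 to 1502 in normal and 979 to 1584 in AAF/PH liver. It was 1278, 1253 and 3164 in placebo foci and 4039, 2091 and 1117 in rapamycin foci. The high animals were those in which the immunoproteasome genes were high. Tap1, the neighbour of Psmb8 and Psmb9, read 58.3, 56.0 and 113 in placebo foci and 199, 97.0 and 82.9 in rapamycin foci, against 53.7, 54.9 and 61.2 in normal liver (1.05 ± 0.32 for rapamycin, limma adjusted p = 0.0616). Of 16 measured MHC class I processing genes, 1 was called higher in each kind of foci, RT1-M3-1, against the same 2.84% and 1.60% of all genes.

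Immune cells carry the immunoproteasome, and their markers are given for that reason. The 14 measured lymphocyte markers summed to 262 to 319 in normal, 380 to 432 in AAF/PH liver, 298 to 368 in placebo foci and 344 to 442 in rapamycin foci. The highest sum was that of rapamycin animal 3 (442), in which the first quartile of all genes was also the highest. Single markers did not all follow the sum. Nkg7, a granule gene of natural killer and cytotoxic T cells, read 17.2 to 19 in normal liver, 22.8, 27.1 and 28.4 in placebo foci and 44.7, 30.3 and 23.1 in rapamycin foci, in the same order of rapamycin animals as Psmb9. It was the 1 of 14 called higher in rapamycin foci (0.81 ± 0.22, limma adjusted p = 0.0457), against 1.60% of all genes. None of the 14 was called in placebo foci, against 2.84% of all genes called higher. Other lymphocyte markers had other orders. Among the rapamycin animals, Cd2, Cd3d, Cd3e, Cd8a and Cd79b were highest in animal 3, where Psmb9 was lowest (138). Cd4 and Ptprc were lowest in that animal. The 12 macrophage markers summed to 1546 to 1897 in normal and 1710 to 1850 in AAF/PH liver. They summed to 1248 to 2041 in placebo and 822 to 1589 in rapamycin foci. Against normal liver, 11 of the 12 stood below 0 in rapamycin foci (median −0.50) and 7 in placebo foci (median −0.04). Of the 12, 4 were called lower in rapamycin and 2 in placebo foci, none higher (6.53% and 8.22% of all genes in either direction). In AAF/PH liver 2 were called higher and 2 lower, against 7.54% and 12.5% of all genes. The 7 dendritic cell and MHC class II genes summed to 371 to 529 in normal, 1891 to 2112 in AAF/PH liver, 1261 to 3064 in placebo foci and 901 to 2354 in rapamycin foci, and 5 of the 7 were called higher than normal in each of these groups, against 7.54%, 2.84% and 1.60% of all genes. Of the defining markers, Cd3e read 7.90 to 15.7 and Ms4a1 4.98 to 11.4 over the 12 animals, at or below the first quartile of most arrays, and Ptprc, the marker of all leukocytes, 24.4 to 59.8. Ptprc read 27.1, 29.2 and 49.8 in placebo foci and 37.0, 45.0 and 24.4 in rapamycin foci. Within the foci, the animals high in Psmb9 were also the higher ones for Ptprc. Across groups the 2 genes differed. In AAF/PH liver Ptprc read 44.2, 59.3 and 59.8, called higher than normal (limma adjusted p = 0.0313), while Psmb9 read 78.0 to 116 there. The part of immune cells in the values of Psmb9 and Psmb10 was not tested.

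Of the 45 genes, 7 had more than 1 probe set. The second sets of Psma6, Psmd8 and Psme1 were dim (mean intensity 7.07, 23.3 and 14.2) and did not follow the first: against normal liver in AAF/PH, Psma6 differed by −1.15 on its bright set and 0.17 on its dim one. The second sets of Psme3 (47.5) and Psmc4 (81.7) were brighter, and differed from the first in rapamycin foci against AAF/PH liver, by 0.87 against −0.11 for Psme3 and by 0.54 against −0.14 for Psmc4. For Psmb6 the second set (109) gave −0.07 where the first (212) gave −0.43.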

How the data were processed

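Affymetrix Rat Gene ST 1.0 arrays were read from the deposited matrix, which holds a linear intensity for each probe set. The submitters' processing notes name Partek 6.6 and RMA with no role or order. For background and normalization, settings are not given in the sources used here. Each intensity was put on the log2 scale with no pseudocount (0 added), the arrays of SF Rapamycin animal 3 were averaged, and the probe set of highest mean was kept for each gene that the platform annotation pairs with a single symbol. Differences were tested with limma 3.58.1 in R 4.3.3 (with data.table, version 1.17.8), in 1 model of 4 groups, which was first tested on simulated data. Within-array pairs were tested with exact permutation over all 15400 arrangements in Python 3.11.15 (numpy 2.4.6, pandas 2.3.3). Figures used matplotlib 3.10.9. Array number limits the precision. Named genes were up to 4 called genes of each class and contrast by p, or the gene of smallest p where none was called, plus the protease subunits with their replacements and activators; other genes named were chosen after their values were seen. The members and lists were chosen with earlier results of these data known. Alternatives were other scalings, array weights, probe set and array rules, a filter on genes of mean log2 under 4, fits of a single pair of groups, a replicate block and leaving out each animal; those for the protease pairs were added after the data were seen.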

Additional observations from a re-analysis of the deposited data

How the results depend on the processing

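The count of the 45 genes called by limma depended on the processing. For AAF/PH against normal liver (7 as reported) it was 3 after quantile normalization, 4 with the first array alone of rapamycin animal 3, 23 when only that pair of groups was fitted, 32 with array quality weights, whose estimation stopped before convergence, and 0 to 22 leaving out each animal in turn. For placebo foci against normal liver (0) it was 1 with quantile normalization, 31 with array weights, 5 with the pairwise fit and 0 to 7 leaving out each animal. For rapamycin foci against normal liver (1) it was 2 with quantile normalization, 0 with median centring, 4 with a common spread, 2 with array weights, 0 with the first array, 0 with the pairwise fit, and 0 to 9 leaving out each animal, the 9 without rapamycin animal 2. For placebo foci against AAF/PH liver (0) it was 2 with quantile normalization, 1 with a common spread, 7 with array weights, 6 with the pairwise fit and 0 to 7 leaving out each animal. For rapamycin foci against AAF/PH liver (0) it was 4 with quantile normalization, 3 with a common spread, 4 with array weights and 0 to 17 leaving out each animal. Between rapamycin and placebo foci it stayed at 0 in every alternative run. The highest counts in leaving out 1 animal for 4 of these (22, 7, 7 and 17, in AAF/PH and placebo against normal liver and in placebo and rapamycin foci against AAF/PH liver) came without rapamycin animal 3. The cause was not tested. The calls over all 14497 genes moved as well. With array weights, 4226 were called higher and 3770 lower in AAF/PH against normal liver, and 2851 and 3592 in placebo foci. The pairwise fit called 2296 and 2819, and 711 and 1586, in the same order. Without rapamycin animal 2, 449 and 1602 were called in rapamycin foci against normal liver. Against AAF/PH liver, array weights called 1073 and 938 in placebo foci and 935 and 329 in rapamycin foci. The exact permutation p of the Psmb8 and Psmb5 pair was 0.0221 to 0.119 leaving out each animal.

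A fit with the replicate number as a block (the replicate block) called 3 in AAF/PH liver and 0 in rapamycin foci against normal, and changed no other count. Deviations of animals of the same number correlated at −0.68 to 0.38 over 18 pairs, of which 7 were above 0.1. Those of animals of different number correlated at −0.48 to 0.63 over 36 pairs, of which 15 were above 0.1. By this measure animals of the same number were no more alike, which cannot exclude a pairing. Common spread and median centring moved the median of all genes in AAF/PH against normal from 0.12 to −0.11 and −0.08.

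Single values that were not called changed sign as follows, on the log2 scale; the cause was not tested. With quantile normalization this held for Psmb10 (0.026), Psmb5 (0.27), Psmb6 (0.061) and Psmb9 (0.075) in AAF/PH against normal liver, for Psmb5 (−0.058) in placebo foci against AAF/PH liver, for Psmb5 (0.22) in placebo foci against normal liver, for Psmb7 (−0.12) in rapamycin foci against AAF/PH liver, for Psmb8 (0.10) in rapamycin against placebo foci. With a common spread this held for Psmb5 (0.037) in placebo foci against normal liver, for Psmb7 (−0.043) in rapamycin foci against AAF/PH liver, for Psmb8 (0.038) in rapamycin against placebo foci. With array weights this held for Psme2 (−0.15) in placebo foci against normal liver, for Psmb5 (0.053) and Psmb6 (0.17) in rapamycin foci against AAF/PH liver, for Psma4 (0.21), Psmb6 (0.32), Psmb7 (0.079), Psmb8 (0.083), Psmc1 (0.011), Psmd2 (0.0078) and Psme1 (0.26) in rapamycin against placebo foci. With the mean of all probe sets this held for Psme3 (−0.11) in placebo foci against normal liver, for Psme1 (−0.045) in rapamycin foci against normal liver. With median centring this held for Psme1 (−0.082) in rapamycin foci against normal liver. Leaving out each animal in turn gave values on both sides of 0 for the following. In AAF/PH against normal liver they spanned −0.34 to 0.0046 for Psmb10. In placebo foci against normal liver they spanned −0.16 to 0.060 for Psmb5 and −0.21 to 0.40 for Psme2. In rapamycin foci against normal liver they spanned −0.67 to 0.0056 for Psmb5, −0.019 to 0.53 for Psmb8, −0.18 to 0.59 for Psme1 and −0.086 to 0.82 for Psme2. In rapamycin foci against AAF/PH liver they spanned −0.47 to 0.20 for Psmb5, −0.44 to 0.22 for Psmb6, −0.30 to 0.63 for Psmb7 and −0.073 to 0.83 for Psme4. In rapamycin against placebo foci they spanned −0.60 to 0.32 for Psma4, −0.19 to 0.66 for Psmb10, −0.82 to 0.037 for Psmb4, −0.63 to 0.047 for Psmb5, −0.35 to 0.31 for Psmb6, −0.76 to 0.16 for Psmb7, −0.29 to 0.26 for Psmb8, −0.23 to 0.82 for Psmb9, −0.58 to 0.021 for Psmc1, −0.48 to 0.29 for Psme1 and −0.27 to 0.63 for Psme2.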
